A study of Rattus norvegicus with 9 samples.

Results

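The integrated and endoplasmic reticulum (ER) stress response was followed through 6 genes of rat PC12 cells: Atf4 (ENSRNOG00000017801), Ddit3 (ENSRNOG00000006789), Atf3 (ENSRNOG00000003745), Trib3 (ENSRNOG00000007319), Asns (ENSRNOG00000007546) and Hspa5 (ENSRNOG00000018294). They were picked by name as textbook genes of this response, not by a threshold on their values, and are 6 of 23426 features listed in each library. Earlier results of these data were known when the genes were chosen, so setting them beside all features is not a blind comparison. PC12 is a single line from a rat pheochromocytoma, used here in a form that the submitters call highly differentiated. The 9 libraries fall into 3 groups of 3: control cells, cells after oxygen-glucose deprivation and reperfusion (OGD/R), and OGD/R cells given miR-483-5p mimics beforehand. The deprivation was 4 h at 1% oxygen without glucose, reoxygenation in normal medium lasted 6 h, and the mimics went in 48 h before deprivation. No group of mimics without OGD/R was analysed here, and the labels do not say whether control and OGD/R cells were given a negative-control mimic, so the mimic and its transfection cannot be told apart. The labels also do not say whether replicates were separate cultures, so p-values measure the spread between libraries, which may be technical. The deposited files hold identifiers without gene names, the names of these 6 were given separately, and neither they nor the labelled cell type could be checked, because 0 of the 23426 identifiers matched the gene table used here.

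Cells under amino acid shortage, heme shortage, viral RNA or unfolded protein in the ER phosphorylate the initiation factor eIF2alpha, which slows most translation while the mRNA of the transcription factor ATF4 is translated more. ATF4 then turns on genes of amino acid supply and a second tier of regulators, and this common route is called the integrated stress response. The ER has further sensors, ATF6 and IRE1, which raise the chaperones of the ER lumen. In ischemic neurons, where oxygen and glucose run short, these routes are known both for restoring protein folding and, through CHOP, for promoting cell death.

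Promoter sequence was at hand by symbol (RefSeq, GRCr8) for 5 of the 6 genes, all but Atf3. The 250 bases before the annotated start were searched on both strands for 4 motifs. Hspa5 held CCAAT and CCACG separated by 9 bases, the ER stress response element bound by ATF6 with NF-Y, starting 43 bases before the start. This arrangement occurred in 22 of 33469 promoters of the same length (0.0657%). Trib3 held TGATGNAA, the composite element read by ATF4 with C/EBP partners, on the opposite strand from 21 to 14 bases before the start, as did 3.4% of all promoters. Ddit3 held TGANTCA, the AP-1 site with its middle base left free, starting 241 bases before the start. Its letters there were TGACTCA, and TGANTCA with any middle base occurred in 6.34% of promoters. The cAMP response element TGACGTCA, present in 1.59% of promoters, was found in 0 of the 5. Each match lay in a different promoter, and a match is a run of letters, not evidence of binding. The 3 promoters with a match are shown 5′ to 3′ along the gene, with the fixed letters of the motif in capitals, at chr3:38452766-38453015 (plus strand) for Hspa5, chr3:161275534-161275783 (minus strand) for Trib3 and chr7:65001445-65001694 (plus strand) for Ddit3.
Hspa5: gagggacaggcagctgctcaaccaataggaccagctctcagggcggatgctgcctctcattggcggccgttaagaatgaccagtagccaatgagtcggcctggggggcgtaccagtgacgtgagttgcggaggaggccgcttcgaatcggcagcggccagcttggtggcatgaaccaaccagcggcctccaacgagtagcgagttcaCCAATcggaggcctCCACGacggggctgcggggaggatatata
Trib3: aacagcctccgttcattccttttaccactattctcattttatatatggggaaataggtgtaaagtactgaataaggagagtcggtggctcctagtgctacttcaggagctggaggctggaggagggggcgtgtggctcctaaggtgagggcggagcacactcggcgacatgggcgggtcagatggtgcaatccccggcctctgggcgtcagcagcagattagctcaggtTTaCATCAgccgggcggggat
Ddit3: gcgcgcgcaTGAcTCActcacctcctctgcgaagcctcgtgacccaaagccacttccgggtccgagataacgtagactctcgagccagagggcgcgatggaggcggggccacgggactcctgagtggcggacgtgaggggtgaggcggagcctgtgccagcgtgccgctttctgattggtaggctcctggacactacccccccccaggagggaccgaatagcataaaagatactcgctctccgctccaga

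The mimics of the second comparison are named miR-483-5p, and the sample titles give no species for them. The mature sequence of the rat miRNA of that name (RefSeq, GRCr8, chr1:207247903-207247924, minus strand) is shown with the seed, bases 2 to 8, in capitals. The sequence of the mimics themselves was not used here.
rno-miR-483-5p: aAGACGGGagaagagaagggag

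Values are FPKM (fragments per kilobase of transcript, scaled to library size), which set each gene against all other RNA of its library, so more transcript per cell and fewer cells of another state cannot be told apart. Total depth is unknown, and features above 0 numbered 15792 to 16017 in the controls and 16506 to 17242 in the other 6 libraries. Fold changes are differences of log2(FPKM + 0.1) from limma, with p-values adjusted over all 19394 features that exceeded 0 in any library. Over the 11798 features that averaged 1 FPKM or more, called expressed features below and including all 6 genes, OGD/R against control had a median log2 fold change of -0.23 as deposited, and -0.06, 0.01 and -0.01 after quantile, upper-quartile and median-ratio scaling. The share of calls that were higher was 35.1% as deposited, and 45.2%, 53.4% and 52% under those scalings. Over these expressed features the root mean square log2 difference put 4 libraries nearest to one of the other treated group. OGD/R replicate 3 and mimic replicate 1 were nearest to each other (0.384, against 0.461 and 0.386 to the nearest library of their own group). OGD/R replicate 1 and mimic replicate 3 were likewise nearest to each other (0.373, against 0.388 and 0.408). For 2 libraries, which were 0.492 from each other, this went beyond the nearest library. OGD/R replicate 3 was nearer to mimic replicates 1 and 2 (0.384 and 0.391) than to OGD/R replicates 1 and 2 (0.461 and 0.557), and mimic replicate 3 was nearer to OGD/R replicates 1 and 2 (0.373 and 0.404) than to mimic replicates 1 and 2 (0.408 and 0.438). Both libraries thus go against their labels by this measure, and whether the labels were exchanged was not tested. They were kept in the groups that their labels give, on which every value of mimics against OGD/R depends, and that comparison is given also with each treated library left out.

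OGD/R against control asks what the deprivation and its reversal changed. After OGD/R, 5 of the 6 genes rose: Atf3, Ddit3, Trib3, Hspa5 and Atf4, by 14.1-, 3.88-, 2.97-, 2.42- and 2.10-fold on the FPKM + 0.1 scale. Asns, a gene of amino acid supply, did not pass the test. Of all 19394 features tested, 16.1% were higher at an adjusted p under 0.05. The OGD/R libraries lay above all the control libraries for the same 5 genes, and for 23.3% of expressed features. The median log2 fold change of the 6 genes was 1.42, beside the -0.23 over features.

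Atf4 encodes the transcription factor at the centre of the integrated stress response. It was already abundant in control cells, at 221.56, 194.25 and 197.88 FPKM, and reached 443.1, 419.58 and 421.84 FPKM after OGD/R. The groups were far apart, and the SD was 14.8 FPKM in control cells, against 13.0 FPKM after OGD/R (n = 3 each). By limma its log2 fold change was 1.07 ± 0.06 (standard error), at an adjusted p = 5.31e-06. ATF4 is mainly controlled in translation, which mRNA levels do not show.

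Ddit3 encodes CHOP, a transcription factor induced by ATF4 and known for promoting apoptosis under lasting ER stress. It stood at 53.5, 49.48 and 48.37 FPKM in control cells and at 204.87, 161.86 and 225.75 FPKM after OGD/R. Every OGD/R library was far above the controls, with the lowest value in OGD/R replicate 2. By limma its log2 fold change was 1.95 ± 0.12 (standard error), at an adjusted p = 8.09e-06.

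Atf3 encodes a stress-inducible transcription factor of the same basic leucine zipper class. It was near the bottom of the expressed range in the controls, at 1.32, 2.02 and 1.85 FPKM, and rose to 21.83, 19.77 and 37.29 FPKM after OGD/R. OGD/R replicate 3 stood above the other two. By limma its log2 fold change was 3.81 ± 0.26 (standard error), at an adjusted p = 1.19e-05. This change was the largest of the 6 genes, and 27 of the 11798 expressed features had a larger one. Within them its level moved from percentile 4.08 to 8.18 in the controls to percentile 58.5 to 76.1 after OGD/R.

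Trib3 encodes a pseudokinase that is induced by ATF4 and CHOP and restrains them in turn. Its values were 12, 10.74 and 10.06 FPKM in control cells, against 39.05, 38.68 and 22.92 FPKM after OGD/R. Here OGD/R replicate 3 was the lowest of the treated libraries, though still above all the controls. By limma its log2 fold change was 1.57 ± 0.20 (standard error), at an adjusted p = 0.00023, and 1.82 without OGD/R replicate 3 (adjusted p = 9.23e-05). In the same way it was 1.44 without OGD/R replicate 1 (adjusted p = 0.00233 from limma) and 1.45 without OGD/R replicate 2 (adjusted p = 0.00179).

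Hspa5 encodes BiP, the main Hsp70 chaperone of the ER lumen, which also holds the ER stress sensors inactive. Its values rose from 406.41, 378.75 and 391.32 FPKM in control cells to 1000.65, 842.4 and 1015.2 FPKM after OGD/R. The letters of the ER stress response element shown above lie in its promoter. By limma its log2 fold change was 1.28 ± 0.08 (standard error), at an adjusted p = 8.78e-06. With these levels Hspa5 was at percentile 97.8 to 97.9 of the expressed features in the controls and at 99.1 to 99.3 after OGD/R.

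Asns encodes asparagine synthetase, which makes asparagine from aspartate and glutamine and is a well-known ATF4 target. It stood at 43.14, 38.52 and 41.58 FPKM in control cells and at 52.39, 59.08 and 39.28 FPKM after OGD/R. OGD/R replicates 1 and 2 were above every control, and replicate 3 lay within their range. The log2 fold change was 0.27 (standard error 0.16, 95% confidence interval -0.10 to 0.64, adjusted p = 0.219 from limma), or 0.51 above the median of features. Asns passed the test after upper-quartile scaling (0.52, adjusted p = 0.00968) and after median-ratio scaling (0.50, adjusted p = 0.021). With 1 library left out it ran up to 0.44 (without OGD/R replicate 3, adjusted p = 0.0504) and down to 0.14 (without OGD/R replicate 2, adjusted p = 0.547).

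**Figure D1:**
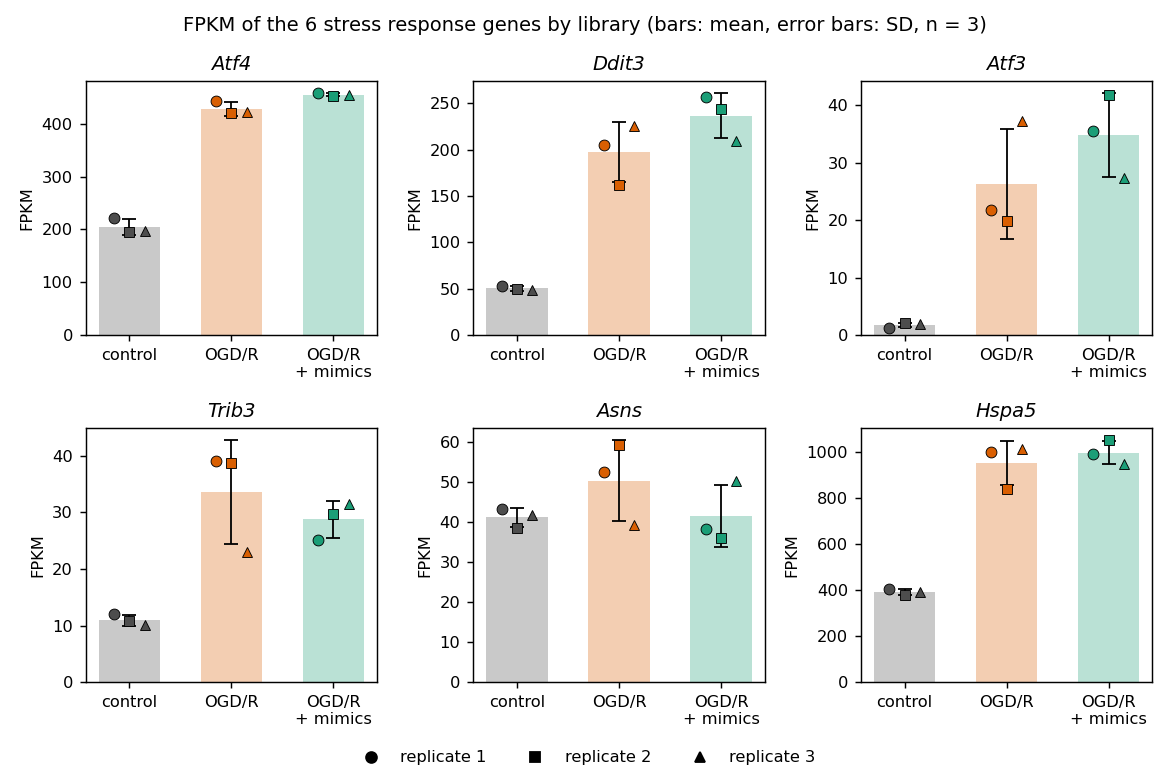
FPKM of each gene by library, in 1 panel per gene with an FPKM axis from 0; points are libraries, shaped by replicate number, bars are group means and error bars are SD (n = 3). For 5 genes all treated libraries lie above all controls, and for Asns the groups overlap, with OGD/R replicate 3 at 39.28 FPKM.

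Ratios of 2 genes within a library are not changed by multiplying a library by a factor, as upper-quartile and median-ratio scaling do, but quantile normalization can change them. The FPKM of Ddit3 over that of Atf4 was 0.241, 0.255 and 0.244 in the controls and 0.462, 0.386 and 0.535 after OGD/R, so Ddit3 rose more than Atf4. The FPKM of Asns over that of Atf4 was 0.195, 0.198 and 0.210 in the controls and 0.118, 0.141 and 0.0931 after OGD/R, without overlap between the groups. Hence the mRNA of Asns did not keep pace with that of Atf4 in any OGD/R library. For Trib3 over Ddit3 the groups overlapped, at 0.208 to 0.224 in the controls and 0.102 to 0.239 after OGD/R. The FPKM of Hspa5 over that of Atf4 was 1.83 to 1.98 in the controls and 2.01 to 2.41 after OGD/R, which did not overlap but came close. With 3 libraries against 3, an exact two-sided permutation test of such a ratio cannot go below 0.10, and none was run.

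The order of FPKM levels was Hspa5, Atf4, Ddit3, Asns, Trib3 and Atf3 in the controls, where no neighbours overlapped. After OGD/R the order of the means was the same, but Trib3 (22.92 to 39.05 FPKM) and Atf3 (19.77 to 37.29 FPKM) overlapped, and Asns (lowest 39.28 FPKM) was barely clear of Trib3. With mimics, Asns (35.89 to 50.28 FPKM), Atf3 (27.25 to 41.71 FPKM) and Trib3 (25.13 to 31.48 FPKM) followed each other, and each overlapped the next. Relative spread after OGD/R was widest for Atf3 (coefficient of variation 36.4%), Trib3 (27.4%) and Asns (20.0%), against 3.03% for Atf4.

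**Figure D2:**
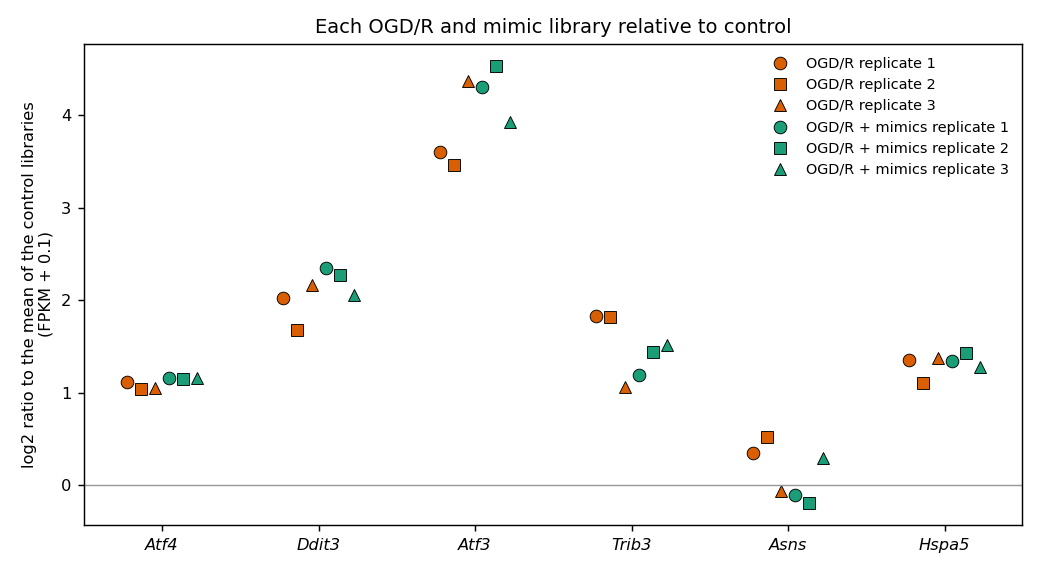
Log2 ratio of each treated library to the mean of the control libraries (FPKM + 0.1) for each gene; colour marks the group and shape the replicate number. Atf4 values lie close together, while for Atf3, Trib3 and Asns OGD/R replicate 3 is placed away from OGD/R replicates 1 and 2.

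OGD/R with mimics against OGD/R asks what miR-483-5p mimics changed in deprived cells. None of the 6 genes passed the test with limma, and 0 of them had an unadjusted p under 0.05. Nor did any of the 19394 features (0%, with 1333 at an unadjusted p under 0.05), though the smallest adjusted p from limma, 0.0511, was close to the threshold. The groups did not overlap for 1 of the 6 genes, Atf4, and for 9.94% of expressed features. The median log2 fold change of the 6 genes was 0.08, beside -0.02 over features. The same OGD/R libraries enter this comparison and the one with control.

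With mimics, Atf4 stood at 457.73, 452.59 and 454.87 FPKM, each slightly above all OGD/R libraries. Its log2 fold change was 0.09 (95% confidence interval -0.05 to 0.22, adjusted p = 0.821 from limma). Ddit3 stood at 256.48, 244.37 and 209.91 FPKM, and mimic replicate 3 was below OGD/R replicate 3. Its log2 fold change was 0.27 (95% confidence interval -0.01 to 0.55, adjusted p = 0.743). Atf3 stood at 35.52, 41.71 and 27.25 FPKM, so that its 2 higher mimic libraries were close to OGD/R replicate 3. Its log2 fold change was 0.44 (95% confidence interval -0.16 to 1.04, adjusted p = 0.815). These intervals include both no change and, for Atf3, a rise of 2.05-fold.

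Trib3 stood at 25.13, 29.68 and 31.48 FPKM with mimics, between OGD/R replicate 3 and the other OGD/R libraries (log2 fold change -0.19, 95% confidence interval -0.63 to 0.26, adjusted p = 0.85 from limma). Asns stood at 38.2, 35.89 and 50.28 FPKM, and only mimic replicate 3 was above the controls (log2 fold change -0.27, 95% confidence interval -0.64 to 0.10, adjusted p = 0.82). Hspa5 stood at 993.79, 1053.11 and 951.3 FPKM, within or near the OGD/R range (log2 fold change 0.07, 95% confidence interval -0.11 to 0.26, adjusted p = 0.863).

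Leaving out single treated libraries moved several of these values by more than 1.5 times, in both directions. Without OGD/R replicate 3, the log2 fold change of mimics against OGD/R was 0.72 for Atf3, 0.37 for Ddit3, -0.44 for Trib3 and -0.44 for Asns. For these genes, but not Atf4 or Hspa5, the 95% confidence interval then excluded no change, with adjusted p-values of 0.185 to 0.235 from limma. Of all features, 3238 had an unadjusted p under 0.05 in that fit. OGD/R replicate 3 lay nearer to mimic libraries than to its own group, so leaving it out by itself widens the gap. Without OGD/R replicate 2 the log2 fold change was 0.26 for Atf3, 0.13 for Ddit3, -0.06 for Trib3 and -0.15 for Asns. Trib3 was also at -0.06 without OGD/R replicate 1. Hspa5 ran from -0.01 without OGD/R replicate 2 to 0.12 without OGD/R replicate 3, while Atf4 stayed between 0.07 and 0.11. Leaving out any 1 mimic library gave values between these extremes. None of the 6 genes passed in any fit with 1 library left out.

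With OGD/R replicate 3 and mimic replicate 3 both left out, the log2 fold changes were 0.89 for Atf3, 0.46 for Ddit3, -0.51 for Trib3 and -0.59 for Asns. These 2 libraries were chosen because they lay near the opposite group, which by itself widens the gap between the groups, so no test is read from that fit. An exchange of their labels was not tested either, and the main values of mimics against OGD/R hold only if the labels are right.

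**Figure D3:**
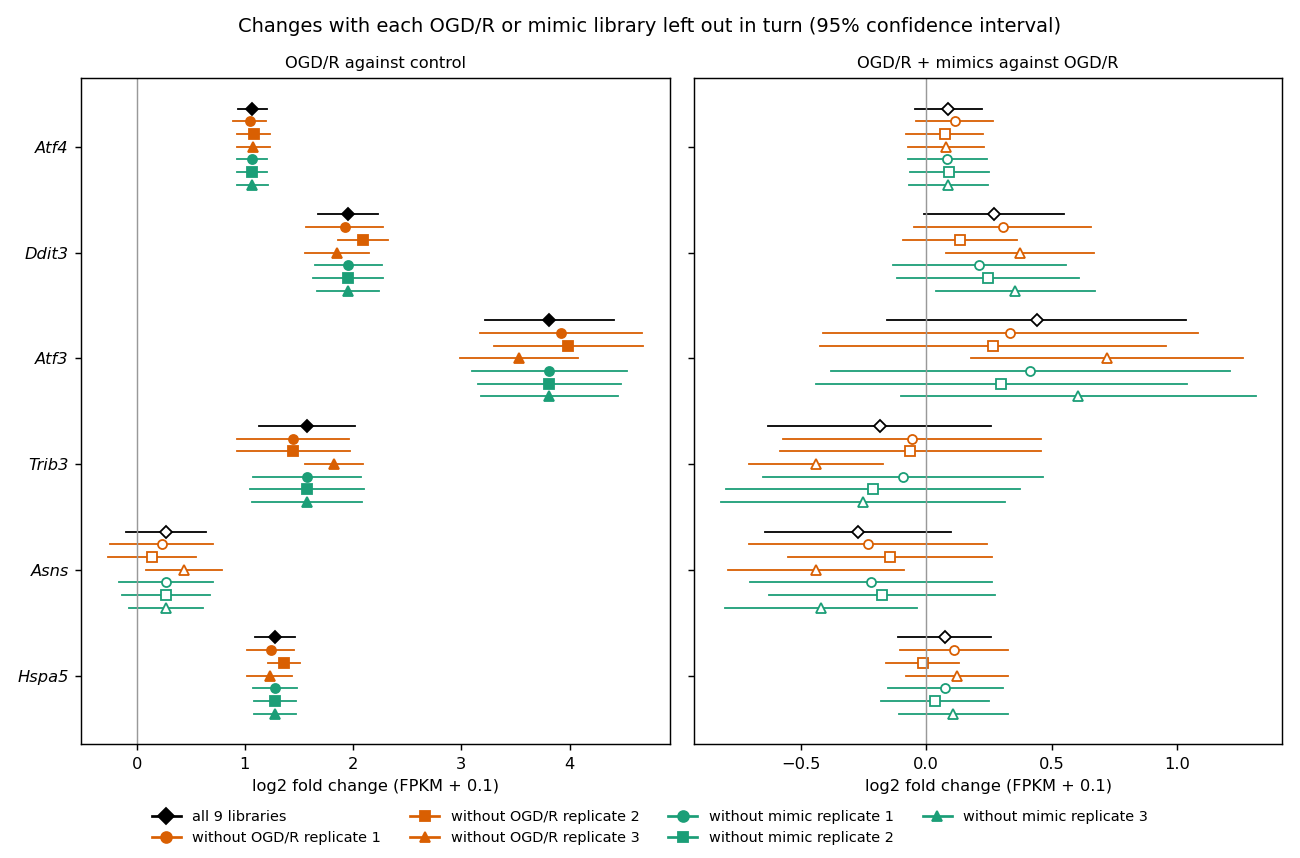
Log2 fold change (FPKM + 0.1) with its 95% confidence interval for each gene, with all 9 libraries and with each OGD/R or mimic library left out in turn; filled points have an adjusted p under 0.05. Against control the rises of 5 genes are filled in every fit shown, and between mimics and OGD/R no point is filled, with Atf3 between 0.26 and 0.72.

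OGD/R with mimics against control asks how far deprived cells with mimics stood from control cells. The same 5 genes rose as after OGD/R alone, beside 18.6% of all features tested that were higher. The groups did not overlap for these 5, and for 24.7% of expressed features. This comparison shares the control libraries with the first. The log2 fold changes were 4.25 for Atf3 (standard error 0.26), 2.23 for Ddit3 (0.12), 1.38 for Trib3 (0.20), 1.35 for Hspa5 (0.08) and 1.16 for Atf4 (0.06), with adjusted p-values from limma of 3.22e-06 for Atf4 to 0.000398 for Trib3. Their size beside OGD/R alone was compared directly in the preceding comparison, where none of the differences passed.

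Asns did not differ by more than the spread between mimic and control libraries (log2 fold change -0.00, 95% confidence interval -0.37 to 0.37, adjusted p = 1 from limma). The FPKM of Asns over that of Atf4 was 0.0835, 0.0793 and 0.111 with mimics, below the 0.195 of the lowest control. The FPKM of Ddit3 over that of Atf4 was 0.461 to 0.56 with mimics, above every control. The FPKM of Trib3 over that of Ddit3 was 0.098 to 0.15 with mimics, below the 0.208 of the lowest control, so that Trib3 rose less than Ddit3 in each of these libraries.

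**Figure D4:**
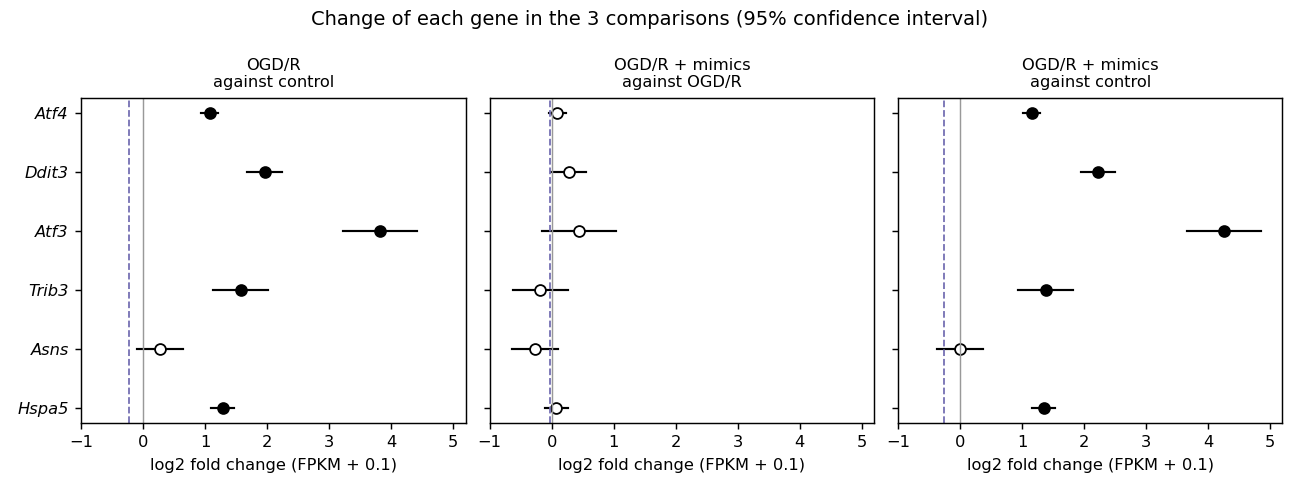
Log2 fold change (FPKM + 0.1) of each gene in the 3 comparisons, with its 95% confidence interval; filled points have an adjusted p under 0.05, and the dashed line is the median of the 11798 expressed features. In both comparisons with control 5 genes are filled and to the right of 1, and between mimics and OGD/R none is filled.

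The profile of Atf3 was followed most closely by 2 expressed features over the 9 libraries, judged by the root mean square difference of log2 profiles centred on their means. ENSRNOG00000033433 differed by 0.203, at 5.02, 4.76 and 5.33 FPKM in control, 59.16, 47.35 and 93.61 FPKM in OGD/R and 94.29, 91.05 and 64.2 FPKM in mimic libraries. ENSRNOG00000003687 differed by 0.291, at 1.36, 1.23 and 1.92 FPKM in control, 17, 22.8 and 36.35 FPKM in OGD/R and 30.08, 26.77 and 25.33 FPKM in mimic libraries. In both, as in Atf3, OGD/R replicate 3 was the highest of the OGD/R libraries. Their log2 fold changes after OGD/R were 3.64 and 3.94. Both likenesses to Atf3 follow largely from the choice by profile over these same libraries, and are no separate result. They have no gene symbols here.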

How the data were processed

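Before quantification with RSEM, the authors filtered out low-quality reads and those holding adapter or poly-N stretches. They deposited 1 FPKM value per feature and library, rounded to 2 decimals. The submitters' processing notes also name Bowtie2 (version 2.3.3.1) and Cufflinks (version 2.2.1). The labels name 2 library kits without saying which library used which, and the genome build is not given in the sources used here. A detail of the culture that the labels give is not reported here.

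Groups and replicate numbers came from the sample titles. Since FPKM values are not counts, log2(FPKM + 0.1) was fitted with limma (version 3.58.1, R version 4.3.3) (lmFit, then eBayes with trend) for all 9 libraries and 3 groups with 6 residual degrees of freedom. Tests were two-sided, with Benjamini-Hochberg adjustment and a threshold of 0.05, and the fit was tested on simulated data. The 21 alternatives covered pseudocounts, filters, scalings, fits of 2 groups, a replicate block, the trend and left-out libraries.

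The members and lists were chosen with earlier results of these data known. All 6 members were named, and the 2 features most like the member with the largest change. The 72 further stress genes listed by symbol, and markers of PC12 and other cells, were not looked up, because the identifiers are not paired with symbols here.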

Additional observations from a re-analysis of the deposited data

How the results depend on the processing

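The rises of Atf4, Ddit3, Atf3, Trib3 and Hspa5 against control kept their direction and their adjusted p under 0.05 in all 21 alternatives, in both comparisons with control. After OGD/R, Asns passed against control under the 2 scalings given above, and with OGD/R replicate 3 and mimic replicate 3 both left out. Between mimics and control its change, -0.00, turned positive after quantile (0.14), upper-quartile (0.32) and median-ratio scaling (0.24), and ran from -0.15 to 0.095 over the fits without 1 library. Between mimics and OGD/R, Hspa5 ran from -0.014 (without OGD/R replicate 2) to 0.12 over those fits. Between mimics and OGD/R, 1 of the 6 genes, Asns, passed with OGD/R replicate 3 and mimic replicate 3 both left out, and 0 in each other alternative. Of all features, 830 passed in that fit. Since these 2 libraries were chosen for lying near the opposite group, that fit widens the gap by construction, and its calls are not read as results. Of all features, 9 passed with a pseudocount of 0.01, 12 with no filter, 2 with only the 2 groups compared, 7 without a mean-variance trend, and 0 to 21 over the fits without 1 library (21 without mimic replicate 2, 14 without mimic replicate 3, 10 without mimic replicate 1 or OGD/R replicate 3, 2 when OGD/R replicate 1 was left out, and 1 for OGD/R replicate 2, control replicate 1 or control replicate 3). The cause was not tested for any of these. The fits that leave 2 libraries in a group take their spread from all groups.

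Replicate numbers did not pair the libraries: deviations from the group means correlated, for replicates 1, 2 and 3, at 0.047, -0.031 and 0.026 between OGD/R and control, at -0.173, -0.262 and -0.465 between mimics and OGD/R, and at 0.057, 0.219 and 0.004 between mimics and control. With the replicate block, 5, 0 and 5 of the 6 genes passed in the 3 comparisons, and 8147, 0 and 8915 of all features. It changed no call of the 6 genes.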
